A study of Mus musculus with 3 samples.

Results

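Matrix metalloproteinases (MMPs) and the tissue inhibitors of metalloproteinases (TIMPs) were examined in macrophages stimulated with CpG, with IFN-γ + αIL-10R, or with all of these agents (Triple). The 9 genes were 6 enzymes (Mmp8, Mmp9, Mmp12, Mmp13, Mmp14, and Mmp19) and 3 inhibitors (Timp1, Timp2, and Timp3), out of 33597 genes measured on all arrays. They were chosen by name, as the non-control probes whose gene name was that of a member, and all 9 were found. The cells were bone marrow-derived macrophages (BMDMs) of C57BL/6J mice, which had been grown from marrow with M-CSF and then kept with the stimuli for 20 h. CpG is a DNA ligand of TLR9, IFN-γ is the macrophage-activating interferon, and αIL-10R, named IL-10RB in the labels, blocks the receptor for IL-10. IFN-γ was always given with the blocker, and no array of untreated cells or of CpG with only 1 of the other agents was part of the comparison. Each condition had 1 array, so no difference below has a replicate check and no p-value is given, and the number and age of the mice were not given in the sources used here.

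MMPs are zinc-dependent proteases that are made as inactive proenzymes and, once activated outside the cell, cut collagens, elastin, and other matrix proteins as well as chemokines and surface receptors. TIMPs are small secreted proteins that bind the active site of MMPs and block it. Macrophages are a source of both, and Mmp12 is often called macrophage elastase. Mmp14 is a membrane-anchored enzyme that, with Timp2 as a bridge, activates the proenzyme of Mmp2 at the cell surface.

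The values are processed signals of a 1-colour array, an intensity in arbitrary units that can be compared between arrays for 1 probe but not between probes. The 3 arrays had similar shares of spots well above background (44.4% to 46.0%), and no spot was saturated. Folds were taken after each array was scaled to its 75th percentile, whose signal ranged from 4377 to 4550. A fold is called here when it exceeds 2 and the brighter signal was well above background, and it is written as at least a value when the dimmer signal was not. Probes printed on several spots of an array gave a technical SD of 0.15 for a log2 fold between single spots, and 0.38 when the signal was under 100, which covers the noise between spots and not that between cultures. Macrophage markers were present, since 6 of 7 were measured on all arrays and all 6 were well above background on each. Their levels were not all steady. Triple fell under IFN-γ + αIL-10R for Cd68 (2.25-fold) and exceeded CpG for Mertk (4.05-fold). CpG exceeded IFN-γ + αIL-10R for Itgam (2.51-fold) and fell under it for Fcgr1 (2.08-fold) and Mertk (2.48-fold). Emr1 and Csf1r, read with their brightest probes, stayed within 2-fold. Lyz2, the seventh, was lost to an outlier mark. With the marked spots kept it read 125466 in CpG, 44908 in IFN-γ + αIL-10R, and 55110 in Triple. Fewer cells that express a gene and less of its RNA per cell cannot be told apart in such bulk RNA.

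The members were read by 11 probes on 20 spots, and none of these spots had an outlier mark on any array. On mm9, the build of the array's annotation, the probe of Mmp8 (NM_008611) lies at chr9:7568238-7568297, that of Mmp13 (NM_008607) at chr9:7282762-7282821, and the brighter of those of Mmp12 (NM_008605) at chr9:7352935-7352994. The probe of Mmp9 (NM_013599) is at chr2:164780620-164780679, that of Mmp14 (NM_008608) at chr14:55058775-55058834, and that of Mmp19 (NM_021412) at chr10:128236221-128236280. Among the inhibitors, the probes are at chrX:20451802-20451861 for Timp1 (NM_001044384), at chr11:118163146-118163205 on the minus strand for the brighter of Timp2 (NM_011594), and at chr10:85811696-85811755 for Timp3 (NM_011595). The annotation gives no exon or coding part for them, and these were not analysed here. All 9 accessions were found under the same names in RefSeq.

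Sequences are shown for the probes behind the results that turn on them most, those of Mmp14 and Mmp12 and the dimmer probe of Timp2. The last has 60 bases but covers chr11:118171964-118178741, 6778 bases of the genome, so that it reads across a splice junction, while the brighter Timp2 probe lies in 1 unbroken stretch.
Mmp14 probe: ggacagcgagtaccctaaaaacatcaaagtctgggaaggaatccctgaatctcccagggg
Mmp12 brighter probe: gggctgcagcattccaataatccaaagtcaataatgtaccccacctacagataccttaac
Timp2 junction probe: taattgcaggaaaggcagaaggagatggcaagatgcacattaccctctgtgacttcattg

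The promoters of the members were read as the 250 bases before the transcription start (RefSeq, GRCm38.p6). Of the members, 7 had a window in the table, Mmp12 with 2 starts, which made 8 windows. Mmp9 and Mmp19 had none. Both strands were searched for the AP-1 motif (TGAGTCA) and the PEA3 motif of ETS factors (AGGAAG), long described as paired in MMP promoters, and for GAS (TTCNNNGAA), ISRE, NF-κB, and TATA box (TATAAA) motifs. AP-1 matched in 2 of the 8 windows, and in 4.46% of all 32851 windows of this length. PEA3 matched in 6 of 8, against 29.5% of all windows. ISRE (2.98% of all windows), NF-κB (7.25%), and TATA (12.4%) each matched in 1 window, and GAS (7.02%) in 0. The window of Mmp13 was the only one of the 8 with AP-1 and PEA3 together. Its AP-1 match lies 35 to 29 bases before the start, its PEA3 matches begin 109 and 62 bases before it, an ISRE match begins 146 bases before it, and a TATA match begins 16 bases before it. No searched motif overlapped another in these windows. A match is a description of the letters and shows no binding. The windows below are those of the enzymes that were highest in Triple, of the Mmp12 start with the other AP-1 match, and of Timp2, which was lowest in Triple, with AP-1 and PEA3 matches in capitals.
Mmp13 chr9:7272264-7272513 (+): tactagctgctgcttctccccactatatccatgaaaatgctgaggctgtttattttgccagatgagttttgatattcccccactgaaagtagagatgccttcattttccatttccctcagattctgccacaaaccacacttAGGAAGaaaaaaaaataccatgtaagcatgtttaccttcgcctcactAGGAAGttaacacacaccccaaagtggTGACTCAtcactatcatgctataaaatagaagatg
Mmp14 chr14:54431348-54431597 (+): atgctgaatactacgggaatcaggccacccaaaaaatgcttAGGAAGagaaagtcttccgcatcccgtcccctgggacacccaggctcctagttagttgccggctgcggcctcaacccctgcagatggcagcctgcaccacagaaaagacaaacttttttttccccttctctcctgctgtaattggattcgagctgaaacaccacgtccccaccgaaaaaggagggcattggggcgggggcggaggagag
Mmp12 start 2 chr9:7347124-7347373 (+): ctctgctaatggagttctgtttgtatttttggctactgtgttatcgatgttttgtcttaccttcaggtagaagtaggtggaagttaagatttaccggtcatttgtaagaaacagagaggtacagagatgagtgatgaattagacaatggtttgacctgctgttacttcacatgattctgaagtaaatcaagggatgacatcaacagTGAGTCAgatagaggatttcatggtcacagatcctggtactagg
Timp2 chr11:118355412-118355661 (-): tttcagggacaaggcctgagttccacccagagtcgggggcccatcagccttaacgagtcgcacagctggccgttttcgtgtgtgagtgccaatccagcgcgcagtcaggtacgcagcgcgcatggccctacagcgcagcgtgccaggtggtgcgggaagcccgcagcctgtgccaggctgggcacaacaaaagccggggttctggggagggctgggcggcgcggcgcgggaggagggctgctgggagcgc
The Mmp14 window holds 1 PEA3 match, 209 bases before the start. The Timp2 window holds none of the 6 motifs and is 68.0% G and C, against 40.4% for Mmp13.

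**Figure D1:**
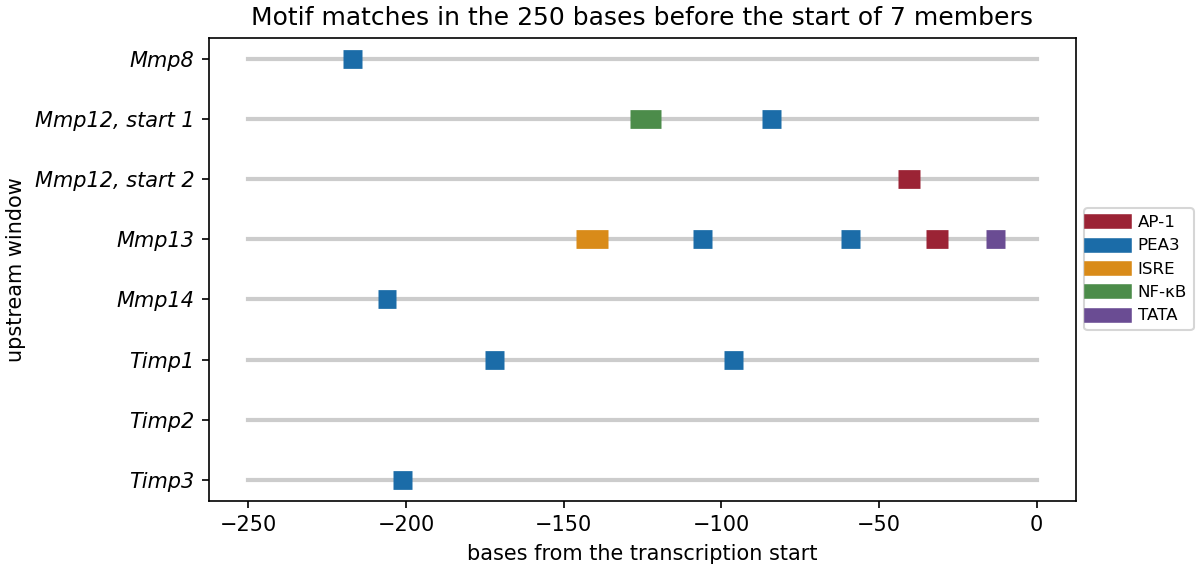
Motif matches on either strand in the 250 bases before the transcription start of 7 members (x axis, bases from the start; y axis, upstream window). Each block is 1 match at its own width, and Mmp13 carries 5 matches of 4 motifs while Timp2 carries none.

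Mmp19, Timp1, and Timp3 passed 2-fold in none of the 3 comparisons, and each other member passed it in at least 1. The share of all genes that passed it in at least 1 was not taken. That share is larger than each share of all genes given below for a single comparison and direction. Against IFN-γ + αIL-10R, 4 members were higher in Triple (Mmp8, Mmp9, Mmp13, and Mmp14) and 1 was lower (Timp2). Of all 33597 genes, 3.53% were higher and 5.00% lower by the same rule. Against CpG, 2 members were higher in Triple (Mmp13 and Mmp14) and 3 were lower (Mmp9, Mmp12, and Timp2), where 4.08% of all genes were higher and 4.55% lower. CpG alone was higher than IFN-γ + αIL-10R for 5 members (Mmp8, Mmp9, Mmp12, Mmp14, and Timp2) and lower for 1 (Mmp13), with 2.75% and 3.18% of all genes. Triple exceeded both other arrays by more than 2-fold for 2 members, Mmp13 and Mmp14 (2.06% of all genes), and fell under both for 1, Timp2 (2.74%). These comparisons share arrays, so an error in 1 array enters more than 1 of them. The members were picked with results of these arrays known, and their counts are a description beside the values for all genes.

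**Figure D2:**
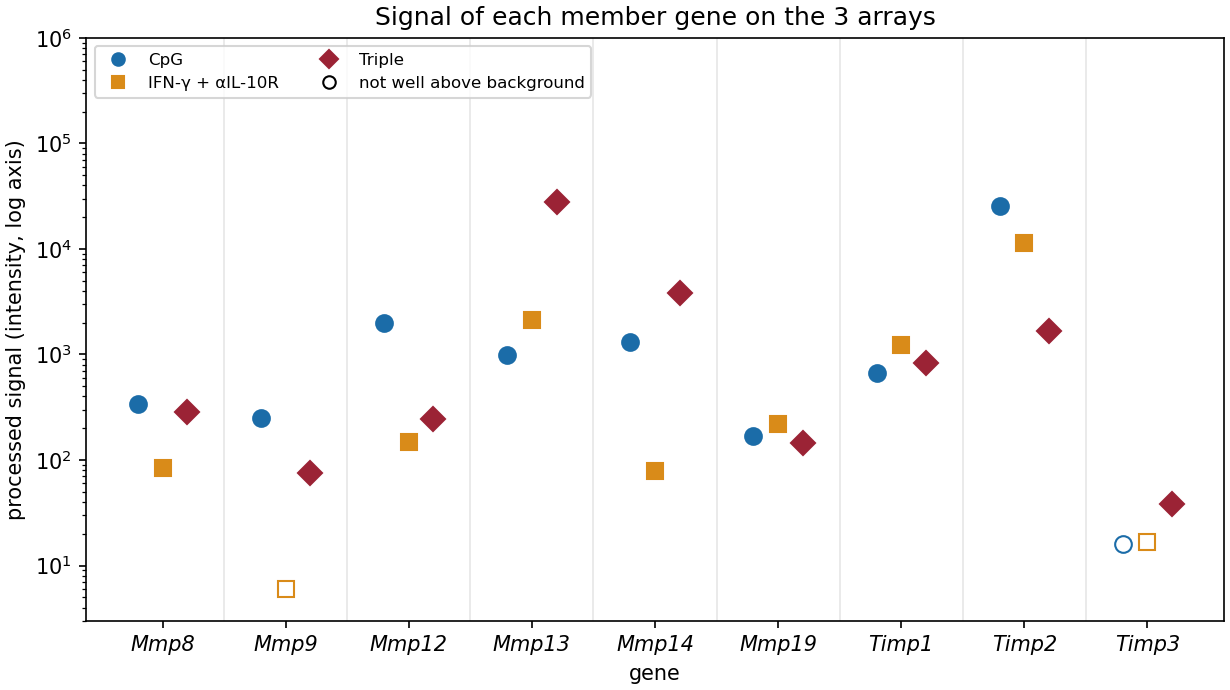
Processed signal (y axis, arbitrary units on a log axis) of the 9 members on the CpG, IFN-γ + αIL-10R, and Triple arrays, 1 point per array, with open symbols for signals not well above background. Mmp13 and Mmp14 are highest in Triple, Timp2 is lowest in Triple, Mmp9, Mmp12, and Timp2 are highest in CpG, and Mmp8 is lowest in IFN-γ + αIL-10R. Heights can be compared within a gene and not between genes.

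Among the collagenases, which cut fibrillar collagen, Mmp13 (collagenase-3) had a signal of 988 in CpG, 2111 in IFN-γ + αIL-10R, and 27761 in Triple. It was 13.4-fold higher in Triple than in IFN-γ + αIL-10R (log2 fold 3.75) and 29.2-fold higher than in CpG (log2 fold 4.87), ranks 93 of 18063 and 55 of 18335 among genes well above background on either array. Triple stood well apart, at 9.20 times the sum of the other scaled signals. Between the other arrays Mmp13 was 2.17-fold lower in CpG, the only member lower in CpG than in IFN-γ + αIL-10R by more than 2-fold.

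Mmp8 (collagenase-2), known as the collagenase stored in neutrophil granules, had a signal of 340 in CpG, 83.8 in IFN-γ + αIL-10R, and 286 in Triple. Here the array without CpG was the low one. Mmp8 was 3.49-fold higher in Triple than in IFN-γ + αIL-10R and 3.99-fold higher in CpG, while Triple and CpG differed by a log2 fold of −0.19, which is close to the technical SD of 0.15. When IFN-γ and the blocker were added to CpG, the signal of Mmp13 was thus many times higher and that of Mmp8 about the same.

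Mmp9 (gelatinase B), which cuts denatured collagen and type IV collagen, was printed on 10 spots per array, so that its noise within an array was measured directly. The 10 spots ranged from 228 to 269 in CpG (median 258), and all were well above background. In Triple they ranged from 59.6 to 94.6 (median 77.0), again all well above background. In IFN-γ + αIL-10R they ranged from 5.39 to 7.11 (median 5.86), and 0 of 10 were well above background. The spots of the 3 arrays did not overlap. Spots of 1 array are technical repeats, with an SD of the log2 signal of 0.09 in CpG and 0.20 in Triple. Mmp9 was at least 9.25-fold higher in CpG and at least 2.87-fold higher in Triple than in IFN-γ + αIL-10R, and it was 3.23-fold lower in Triple than in CpG (log2 fold −1.69). With normexp background correction the log2 folds were 1.78 for CpG and 0.72 for Triple over IFN-γ + αIL-10R, the latter within 2-fold, and −1.05 for Triple over CpG.

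Mmp12 (macrophage elastase) had a signal of 1994 in CpG, 149 in IFN-γ + αIL-10R, and 246 in Triple with its brighter probe. CpG alone stood high, 13.1-fold above IFN-γ + αIL-10R and 7.80-fold above Triple (log2 fold of Triple over CpG −2.96). Triple remained 1.68-fold above IFN-γ + αIL-10R, which is within 2-fold. The only spot of this probe is in row 36, among the first 48 of the 384 rows of the array. The dimmer probe, at chr9:7360373-7360432, read 54.6 in CpG and 6.59 and 6.67 in IFN-γ + αIL-10R and Triple, the last pair not well above background. It also had CpG as the high array, by at least 2.01-fold over IFN-γ + αIL-10R and at least 1.99-fold over Triple. The array's annotation ties the brighter probe to 3 Ensembl transcripts and the dimmer probe to 1.

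**Figure D3:**
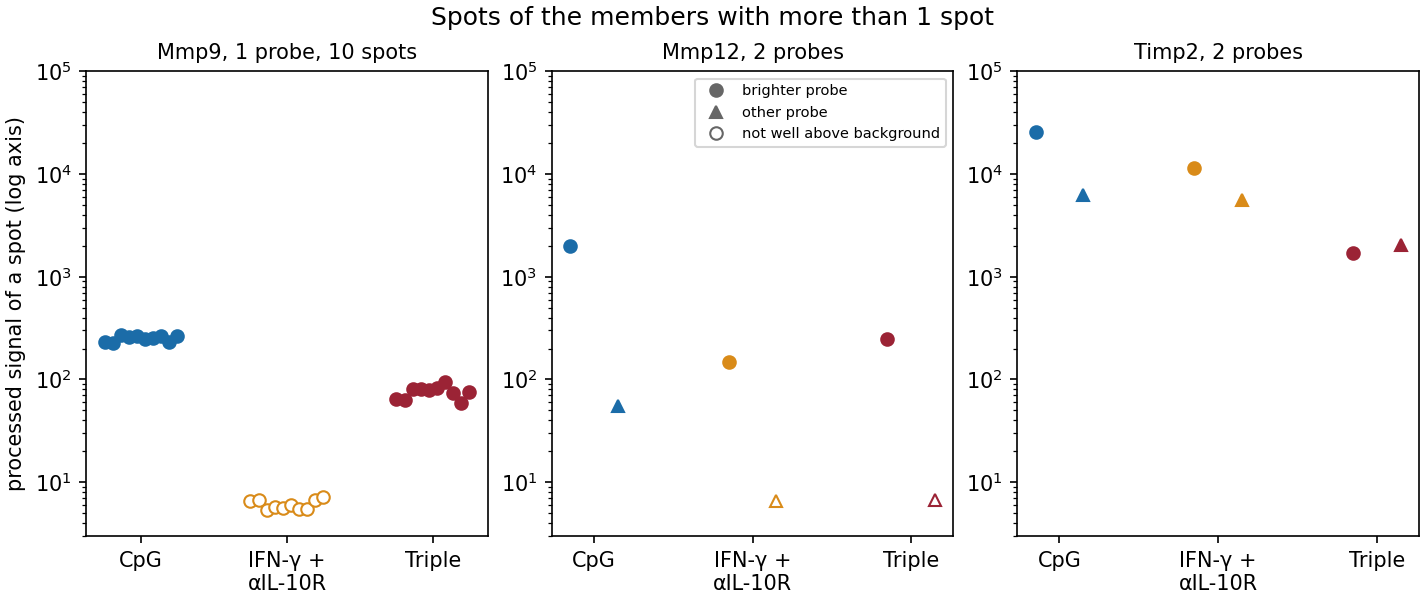
Processed signal of every spot (y axis, log axis) for the members with more than 1 spot, on the CpG, IFN-γ + αIL-10R, and Triple arrays. The 10 spots of Mmp9 form separate bands on the 3 arrays, and both probes of Mmp12 are highest in CpG while both probes of Timp2 are lowest in Triple.

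Mmp14 (MT1-MMP), the membrane-anchored enzyme, had a signal of 1315 in CpG, 79.5 in IFN-γ + αIL-10R, and 3862 in Triple. Between the last of these arrays the log2 fold was 5.63 (49.6-fold higher in Triple), rank 24 of 18063 genes. CpG alone was already 16.3-fold above IFN-γ + αIL-10R (log2 fold 4.02, rank 28 of 18280), and Triple was 3.05-fold above CpG (log2 fold 1.61). Mmp14 was thus low without CpG, high with it, and higher still with all agents, at 2.88 times the sum of the other scaled signals. With normexp background correction the log2 folds over IFN-γ + αIL-10R were smaller, 4.74 for Triple and 3.19 for CpG. Mmp13 differed from it in that CpG alone gave the lowest of its signals. The soluble partner enzyme Mmp2 (gelatinase A) was not well above background on any array, with signals of 6.46 to 9.60.

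Mmp19, a secreted enzyme that cuts basement membrane proteins, had a signal of 168 in CpG, 220 in IFN-γ + αIL-10R, and 145 in Triple. The arrays were close, with log2 folds of −0.42 for CpG over IFN-γ + αIL-10R, −0.58 with Triple in place of CpG, and −0.16 between Triple and CpG. No pair of arrays differed by 2-fold.

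Among the inhibitors, Timp2 had a signal of 25411 in CpG, 11428 in IFN-γ + αIL-10R, and 1685 in Triple. Triple was the low array, 14.5-fold under CpG (log2 fold −3.86) and 6.64-fold under IFN-γ + αIL-10R (log2 fold −2.73). The fold of Triple over CpG ranked 27 from the lowest of 18335 genes. The junction probe, which reads the spliced transcript, gave 6197 in CpG, 5551 in IFN-γ + αIL-10R, and 2038 in Triple. It kept Triple as the low array, by smaller margins of 2.93-fold under CpG and 2.67-fold under IFN-γ + αIL-10R. The probes differed on the other arrays, where CpG was 2.19-fold above IFN-γ + αIL-10R with the brighter probe and a log2 fold of 0.13 above it with the junction probe. The annotation ties the brighter probe to 1 Ensembl transcript and the junction probe to 2.

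Timp1, the inducible inhibitor of most secreted MMPs, had a signal of 671 in CpG, 1225 in IFN-γ + αIL-10R, and 821 in Triple. Triple lay between the other arrays, and the largest log2 fold was −0.89, between CpG and IFN-γ + αIL-10R. Timp3, the inhibitor that binds to the matrix and also blocks ADAM proteases, had signals of 15.9 in CpG and 16.7 in IFN-γ + αIL-10R, neither well above background, and 38.7 in Triple. Triple was at least 1.69-fold above CpG and at least 1.48-fold above IFN-γ + αIL-10R, bounds within 2-fold at a signal whose noise is the larger of the values given above.

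The folds of the enzymes highest in Triple and of Timp2, lowest in Triple, were set against each other, pairs that were chosen for these values. The log2 fold of Mmp14 exceeded that of Timp2 by 8.36 for Triple over IFN-γ + αIL-10R and by 5.47 for Triple over CpG. For Mmp13 the difference was 6.48 and 8.73. With the junction probe of Timp2 these were 7.05 and 3.16 for Mmp14 and 5.16 and 6.42 for Mmp13. Against Timp1, whose own folds were within 2, the same differences were 6.18 and 1.26 for Mmp14 and 4.29 and 4.52 for Mmp13. The other enzymes went the other way against Timp1 for Triple over CpG, with differences of −3.31 for Mmp12, −2.04 for Mmp9, −0.54 for Mmp8, and −0.50 for Mmp19. That held for this choice only. Against Timp1 for Triple over IFN-γ + αIL-10R they were 1.30 for Mmp12, at least 2.06 for Mmp9, 2.35 for Mmp8, and −0.03 for Mmp19. Against the brighter Timp2 probe for Triple over CpG they were 0.90, 2.17, 3.67, and 3.70 in the same order. These are differences between changes in RNA and say nothing of the amounts of protein or activity.

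**Figure D4:**
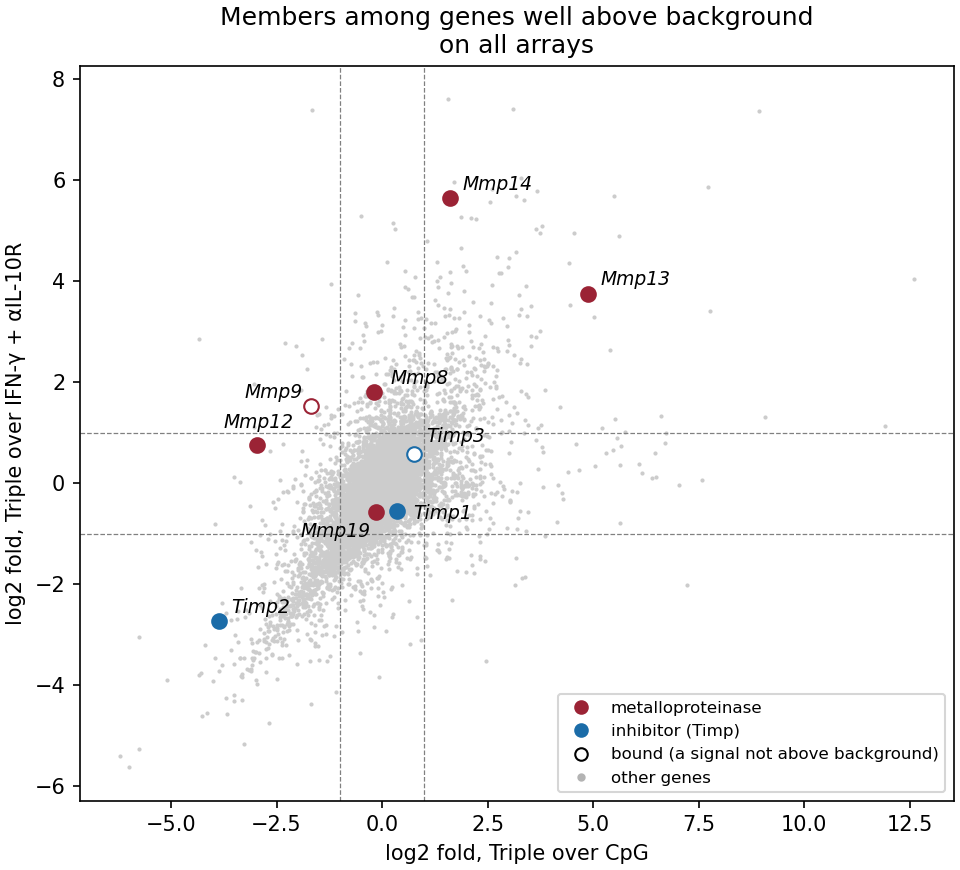
Log2 fold of Triple over CpG (x axis) against that of Triple over IFN-γ + αIL-10R (y axis) for the members and for 15894 genes that were well above background everywhere (grey), with dashed lines at 2-fold and open symbols for bounds. Mmp13 and Mmp14 lie past 2-fold on both axes and Timp2 lies past it on both in the other direction, while Mmp9 and Mmp12 are lower than in CpG and not lower than in IFN-γ + αIL-10R. Both axes share the Triple array.

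The median log2 fold of the 9 members was −0.16 for Triple over CpG and 0.75 for Triple over IFN-γ + αIL-10R. Over all genes well above background on either array it was −0.06 (n = 18335) and −0.05 (n = 18063). For CpG over IFN-γ + αIL-10R the median was 1.13 with Timp3, dim on both arrays, counted at the lower limit, and 1.56 over the other 8 members, against 0.0038 over 18280 genes.

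By position in the plane of the folds of Triple over the other arrays, the genes nearest to the 7 members well above background on all arrays, which leaves out Mmp9 and Timp3, were found among 10537 named genes, as a likeness over 3 arrays only. Nearest to Mmp13 were Irg1 (now Acod1, which makes itaconate; distance 0.47 on the log2 scale), Cd40, a costimulatory receptor (0.49), and Ly6i (0.75). Nearest to Mmp14 were Marco, a scavenger receptor (0.34), Gpr84, a receptor for medium-chain fatty acids (0.45), and Clec4n, which encodes Dectin-2 (0.75). Both enzymes lay in sparse parts of the plane. Timp2 was nearest to Slc39a8, a zinc importer (0.23), Gas6, a bridging protein for apoptotic cells (0.27), and Scd2, a fatty acid desaturase (0.42), and Mmp12 to Oit3 (0.14), Htr2b, a serotonin receptor (0.33), and Chst7, a sulfotransferase (0.36). Mmp8 was nearest to Spn, Me1, and Slc39a13, all within 0.07. Mmp19 was nearest to Smpd2, Myl12b, and Rwdd3, and Timp1 to Stox2, Tdeanc2 (now Tceanc2), and Setdb2, all at smaller distances, in the crowded centre of the plane.

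Mmp8, Mmp12, and Mmp13 belong to the MMP cluster of chromosome 9, where RefSeq lists 10 adjacent protein-coding genes in the order Mmp13, Mmp12, Mmp1b, Mmp3, Mmp1a, Mmp10, Mmp8, Mmp27, Mmp20, and Mmp7. Only 4 of them were well above background on any array, the members and Mmp27. Mmp3, Mmp1a, Mmp10, Mmp20, and Mmp7, which include the stromelysins and matrilysin, were not, with signals from 4.74 to 24.4, and Mmp1b was not measured on all arrays. Mmp27, which lies next to Mmp8, had a signal of 613 in CpG, 84.6 in IFN-γ + αIL-10R, and 234 in Triple. Like Mmp8 and Mmp12 it was higher in CpG than in IFN-γ + αIL-10R (7.13-fold), and it was 2.52-fold lower in Triple than in CpG. A second probe of Mmp27 was not well above background on any array. Among the detected neighbours, CpG was the highest array for Mmp12 and Mmp27 and Triple for Mmp13, while CpG and Triple were close for Mmp8.

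Of the other MMPs and Timp4, 17 of 18 were measured and 14 were not well above background on any array, Timp4 among them. The remaining 3 were Mmp25, Mmp27, and Mmp17. Mmp25 (MT6-MMP), a lipid-anchored enzyme best known from neutrophils, had a signal of 26.2 in CpG, not well above background, 239 in IFN-γ + αIL-10R, and 829 in Triple. It was 3.54-fold higher in Triple than in IFN-γ + αIL-10R and at least 32.8-fold higher than in CpG. Mmp25 and Mmp13 shared the order of the arrays, with CpG lowest and Triple highest. Mmp17 stayed between 81.1 and 86.2.

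Genes that activate MMPs or limit their action were taken as a list of 17, of which 12 were well above background in Triple. For Triple over IFN-γ + αIL-10R, 4 were higher and 2 lower, with a median log2 fold of 0.52 over the 12 genes detected on either array. For Triple over CpG, 2 were higher and 2 lower, with a median of 0.56 over 12. Of all genes, 3.53% were higher and 5.00% lower in Triple than in IFN-γ + αIL-10R, and 4.08% and 4.55% than in CpG. The genes lower in both were Plau and Lrp1, an endocytic receptor that clears MMPs and TIMPs, named after its values were seen, at 15394 in CpG, 12652 in IFN-γ + αIL-10R, and 4754 in Triple. Thrombospondin-1 (Thbs1), a matricellular protein that binds MMPs, had a signal of 116 in CpG, 189 in IFN-γ + αIL-10R, and 5446 in Triple, 29.5-fold above IFN-γ + αIL-10R and 49.0-fold above CpG. Lcn2, the lipocalin that forms a complex with Mmp9, had a signal of 8253 in CpG, 637 in IFN-γ + αIL-10R, and 11492 in Triple. It shared with Mmp9 that IFN-γ + αIL-10R was the low array, but in Triple it was a log2 fold of 0.53 above CpG while Mmp9 was lower.

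The urokinase system, which turns plasminogen into plasmin and so starts MMP activation, had members in both directions. Urokinase (Plau) had a signal of 797 in CpG, 2097 in IFN-γ + αIL-10R, and 369 in Triple, 5.56-fold lower in Triple than in IFN-γ + αIL-10R and 2.08-fold lower than in CpG. Its receptor (Plaur) had a signal of 4068 in CpG, 1794 in IFN-γ + αIL-10R, and 5907 in Triple, 3.37-fold higher in Triple than in IFN-γ + αIL-10R. The inhibitor Serpinb2 (PAI-2) was well above background in Triple alone (89.4), at least 3.42-fold over IFN-γ + αIL-10R and at least 3.91-fold over CpG. Reck, a membrane-anchored MMP inhibitor, was dim, with signals from 22.2 to 35.6.

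**Figure D5:**
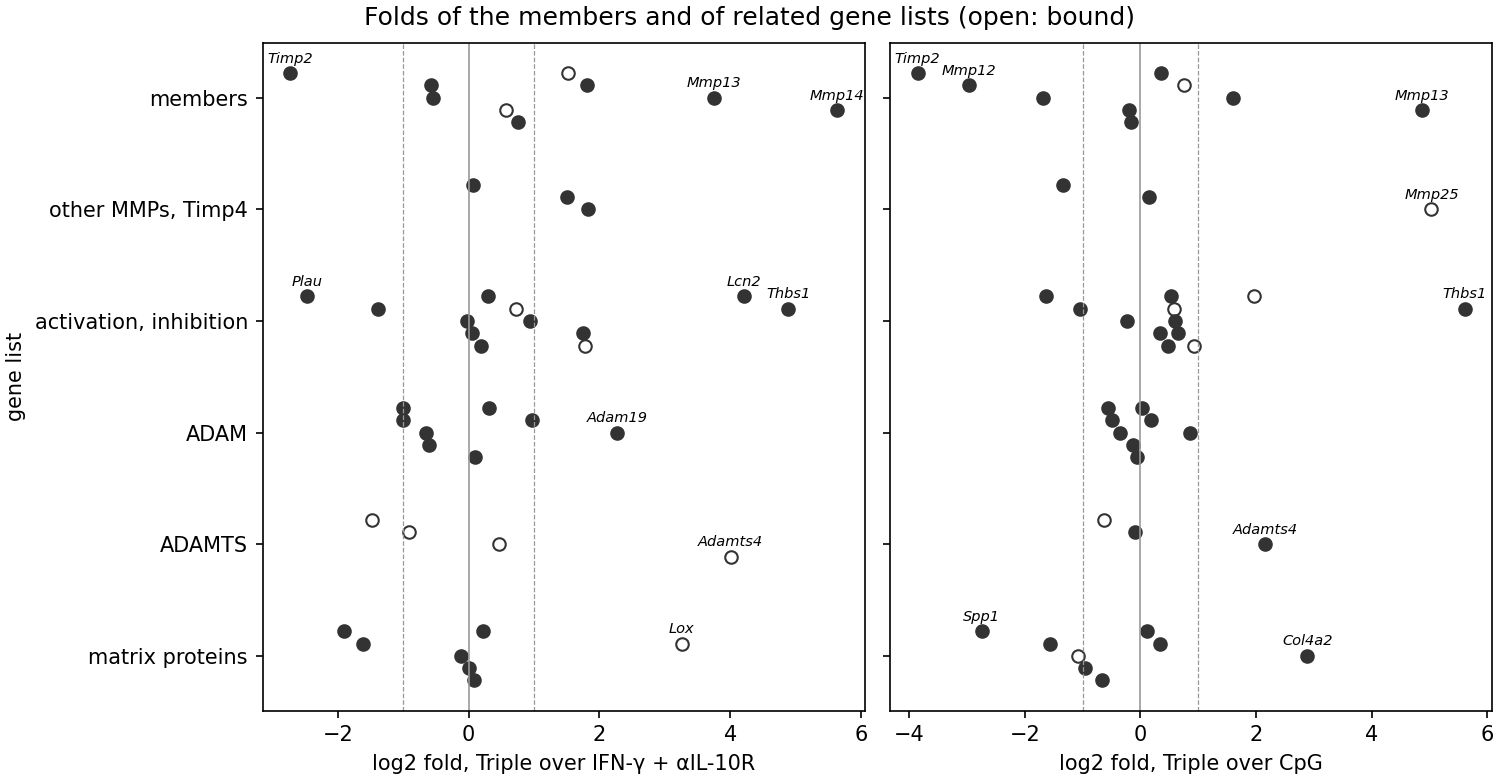
Log2 folds of Triple over IFN-γ + αIL-10R (left) and over CpG (right) for the members and for 5 related gene lists (y axis), 1 point per gene well above background on at least 1 of the arrays compared, open where the value is a bound, dashed lines at 2-fold. Mmp13 and Thbs1 are far to the right in both panels and Timp2 is at the left in both. The vertical offset of points only separates them.

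The related ADAM proteases are membrane-anchored sheddases. Of 11 measured, 8 were well above background on each array. For Triple over CpG 0 passed 2-fold in either direction, with a median log2 fold of −0.10. For Triple over IFN-γ + αIL-10R, 1 was higher (Adam19, with signals of 111 in CpG, 41.2 in IFN-γ + αIL-10R, and 195 in Triple, 4.83-fold, and also 2.66-fold higher in CpG) and 1 was lower (Adam10, 2.01-fold), with a median of −0.25. By the same rule 3.53% of all genes were higher and 5.00% lower in Triple than in IFN-γ + αIL-10R, and 4.08% and 4.55% than in CpG. A second probe of Adam19 was not well above background. Adam17, the TNF convertase, had log2 folds of Triple over IFN-γ + αIL-10R of 0.98 and over CpG of 0.18, and Adam8 of 0.32 and −0.49.

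The secreted ADAMTS proteases were mostly dim, with 0 of 10 well above background on each array and 6 on none. In Triple the median log2 fold was −0.22 over IFN-γ + αIL-10R, for the 4 genes detected on either array. It was −0.10 over CpG, for 3 genes, and both medians include bounds. The aggrecanase Adamts4 had a signal of 97.7 in CpG, 10.5 in IFN-γ + αIL-10R, not well above background, and 419 in Triple. It was at least 16.1-fold higher in Triple than in IFN-γ + αIL-10R and 4.46-fold higher than in CpG, and its second probe, dim on the other arrays, also had Triple as the high array. Adamts4 thus showed the order of Mmp14, with IFN-γ + αIL-10R lowest and Triple highest. Adamts10 was at least 2.77-fold lower in Triple than in IFN-γ + αIL-10R, and Adamts1 was not well above background on any array.

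Matrix proteins, the possible substrates, were taken as a list of 18, with 16 measured and 8 of them not well above background on any array. For Triple over IFN-γ + αIL-10R, 1 was higher and 2 were lower (median log2 fold 0.01 over the 7 detected), and for Triple over CpG, 1 was higher and 3 were lower (median −0.81 over 8). The shares of all genes were 3.53% higher and 5.00% lower for the first comparison, and 4.08% and 4.55% for the second. Osteopontin (Spp1), a known MMP substrate, had a signal of 15037 in CpG, 6714 in IFN-γ + αIL-10R, and 2156 in Triple, the order of Timp2. Lox, which crosslinks collagen, had a signal of 770 in CpG, 5.66 in IFN-γ + αIL-10R, not well above background, and 250 in Triple, the order of Mmp9, and its second probe gave the same order. Tgfbi was 3.74-fold lower in Triple than in IFN-γ + αIL-10R, and Col6a1 was at least 2.10-fold lower in Triple than in CpG. Col4a2, a type IV collagen chain, had a signal of 40.4 in CpG, 317 in IFN-γ + αIL-10R, and 288 in Triple. It was 7.40-fold higher in Triple than in CpG, but Triple had a log2 fold of −0.11 over IFN-γ + αIL-10R. The probe of Fn1 had an outlier mark and was left out. With the marked spots kept it read 203 in CpG, 118 in IFN-γ + αIL-10R, and 131 in Triple.

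Mmp8, Mmp9, and Mmp25 are also neutrophil genes, and Mmp13, Mmp14, and Timp3 are also made by fibroblasts, so markers of these cells were read beside them. Of 11 neutrophil markers, 3 were well above background on all arrays (Elane, Ly6g, and Cebpe) and 6 on none (Mpo, Prtn3, Ltf, Ngp, Retnlg, and Fcnb). Elane had a signal of 2839 in CpG, 1615 in IFN-γ + αIL-10R, and 1539 in Triple. In the same order Ly6g had 555, 7699, and 2658, and Cebpe had 182, 320, and 73.6. Cebpe was 4.25-fold lower in Triple than in IFN-γ + αIL-10R and 2.38-fold lower than in CpG. Ctsg was well above background in CpG alone, and Camp had a signal of 72.9 in CpG, 17.5 in IFN-γ + αIL-10R, not well above background, and 139 in Triple. A second probe of Camp gave 38.5, 44.6, and 82.4 in that order, all well above background. The summed scaled signal was 3598 in CpG, 9515 in IFN-γ + αIL-10R, and 4472 in Triple, a sum that weights each gene by the brightness of its probe and whose order was that of Ly6g. Without Ly6g it was 3064 in CpG, 1980.0 in IFN-γ + αIL-10R, and 1814 in Triple. Of 8 fibroblast markers, 7 were measured. Pdgfra and Pdgfrb were not well above background on any array, and the summed scaled signal was 563 in CpG, 337 in IFN-γ + αIL-10R, and 642 in Triple. Col1a1 had a signal of 177 in CpG, 94.5 in IFN-γ + αIL-10R, and 98.3 in Triple, and Col1a2 of 317, 216, and 319 in that order. Col3a1 had 38.8 in CpG, 9.79 in IFN-γ + αIL-10R, not well above background, and 58.5 in Triple. Postn was well above background in CpG alone, at 34.8. Lum was well above background in Triple alone, at 148, and Dcn, left out for an outlier mark, had a signal of 80.6 in CpG, 16.4 in IFN-γ + αIL-10R, and 342 in Triple with the marked spots kept. Without Lum the fibroblast sum was 557 in CpG, 331 in IFN-γ + αIL-10R, and 494 in Triple. Of the dendritic cell markers, Zbtb46 (25.1, not well above background, in CpG, 36.3 in IFN-γ + αIL-10R, and 133 in Triple) and Xcr1 (well above background in Triple alone, at 60.7) were past 2-fold higher in Triple than on both other arrays, though a second probe of Zbtb46 was not well above background on any array. Siglech, the brightest of them, did not rise, with 36076 in CpG, 35974 in IFN-γ + αIL-10R, and 29736 in Triple with its brightest probe. Flt3 was not well above background on any array. The endothelial marker Kdr read 5344 in CpG, 5725 in IFN-γ + αIL-10R, and 5706 in Triple with its brighter probe and 637, 595, and 4432 in the same order with another. Of the other endothelial markers, Cdh5 was well above background in CpG alone, at 35.3, and Tek and Emcn on no array. The B cell marker Cd79b was 7.15-fold lower in Triple than in CpG. The part of such cells in the results was not tested.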

How the data were processed

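RNA of 3 BMDM cultures was labeled with Cy3 and hybridized to 1-colour Agilent mouse arrays, 1 per condition. The authors deposited the scanner output of Agilent Feature Extraction 10.10.1.1, annotated on mm9. The deposited processed signal is an intensity after background subtraction. A deposited log2 table covers these arrays too, and each of its columns equalled the log2 signal minus 1 constant (within 0.05 for 99.98% of probes), with column medians of −4.26, −4.38, and −4.27. The normalization is not given in the sources used here.

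Control spots and outlier-marked spots were left out, spots of a probe were averaged as log2 signals, and the 75th percentile of the 21233 probes that every array had well above background was subtracted from each array. On average 44.2% of probes were well above background. A gene was its probe with the highest mean. A dim signal was raised, where lower, to the lowest signal well above background of its array, which was 23.8 in CpG, 26.7 in IFN-γ + αIL-10R, and 26.3 in Triple. Summed signals were scaled to the Triple array.

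The members and lists were chosen with earlier results of these data known. Named besides the members were the 3 nearest genes of each, the 5 or fewer genes of each list with the largest folds past 2-fold, and Mmp2, Mmp3, Mmp10, Timp4, Reck, Plau, Plaur, Adam8, Adam17, Adamts1, Adamts4, Fn1, and Spp1, and 1 further gene of this rule is not reported here. Other genes named (Mmp17, the chromosome 9 neighbours, Lrp1, markers, and Dcn) were added after their values were seen. The arrays carried T cell, B cell, dendritic, endothelial, and mast cell markers as well, of which 2 of 5, 2 of 5, 1 of 4, 1 of 4, and 1 of 3 measured were well above background on all arrays.

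Alternatives were 5 other scalings, normexp background correction with an offset of 50 (limma 3.58.1, R 4.3.3), the log2 table, other filters and probe rules, thresholds of 1.5-fold and 3-fold, and values relative to Actb. The code was tested on simulated arrays. Promoter and gene names were those of RefSeq (GRCm38.p6). Calculations used Python 3.11.15, numpy 2.4.6, and pandas 2.3.3.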

Additional observations from a re-analysis of the deposited data

How the results depend on the processing

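The number of arrays and the signal over background limit all values, most for Timp3, for Mmp9 in IFN-γ + αIL-10R, and for the dimmer Mmp12 probe. No paired analysis was possible because there was 1 array per condition. Of the 16 member folds past 2-fold, 14 stayed past it in every alternative that gave a value (up to 13) and 0 changed sign. The exceptions were Mmp9 in Triple over IFN-γ + αIL-10R, with a log2 fold of 0.72 under normexp, and Timp2 in CpG over IFN-γ + αIL-10R, with 0.63 when its probes were averaged. Of 10 folds within 2-fold, 8 stayed there, and Timp3 passed it without the background filter and lower limit (log2 fold 1.24 over IFN-γ + αIL-10R and 1.34 over CpG). The log2 fold of Mmp9 in CpG over IFN-γ + αIL-10R ranged from 1.78 (normexp) to 5.35 (no lower limit). The members lower in CpG than in IFN-γ + αIL-10R numbered 2 at 1.5-fold (6.99% of all genes) and 0 at 3-fold (1.53%). The median log2 fold of the members in Triple over IFN-γ + αIL-10R was 0.52 under normexp, 1.24 without filter and limit, and 0.57 with probes averaged, and that of CpG over IFN-γ + αIL-10R was 0.63 with probes averaged. The cause of these differences was not tested beyond the settings themselves.

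Relative to the scaling used, the all-gene median of Triple over IFN-γ + αIL-10R moved by 0.11 with the 75th percentile over all probes, with median scaling, and with the authors' table, and by −0.13 with spike-in scaling (5 of 10 probes used), shifts that changed no call of a member. Of all genes, 1187 were higher and 1681 lower in Triple than in IFN-γ + αIL-10R, against 2522 and 3088 without filter and limit and 806 and 1100 under normexp. For Triple over CpG the counts were 1370 and 1529, against 2767 and 3022, and 941 and 916. For CpG over IFN-γ + αIL-10R they were 925 and 1068, against 2369 and 2502, and 554 and 708. With RefSeq mRNA probes only, 908 genes were higher and 1222 lower in Triple than in CpG. In Triple over IFN-γ + αIL-10R, 1410 were higher and 1455 lower with the all-probe percentile, and 1002 and 2027 with spike-ins.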
